A study of Bos taurus with 8 samples.

Results

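Genes that switch off the ERK cascade, and ETV5, whose transcript follows ERK activity, were examined in granulosa cells of dominant follicles. The cows had a high or a low androstenedione (A4) content of the follicular fluid. The 10 genes were chosen by name and function, though with earlier results of these data known. They were the dual-specificity phosphatases DUSP1, DUSP4, DUSP5 and DUSP6 and the Sprouty genes SPRY1, SPRY2 and SPRY4. The others were the related genes SPRED1 and SPRED2, and the ETS factor ETV5, which is counted with the feedback genes below. Each of the 10 was represented by its brightest probe set with a single gene symbol. All 10 were found among the 18010 genes named in this way on the array. DUSP4 alone had 2 such probe sets. Granulosa cells line the follicle and turn androgens into estrogens, and here they came from estrous-synchronized beef cows of Red Angus and MARC III breeding. The labels give a mean A4 of 356 ng/mL for the High A4 group (n = 4 cows) and 1.9 ng/mL for the Control group (n = 4 cows). Both groups had the same synchronization, with gonadotropin releasing hormone, progesterone and prostaglandin, before the ovaries were removed. Both groups held estrogen-active follicles only. The cows were not assigned to a treatment but sorted by the A4 of their own follicles, and the cows at the extremes of A4 were taken for the arrays. Mural and cumulus cells were pooled within a cow, and the labels put the granulosa share of the cells at 94% or more.

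The ERK cascade passes a growth factor signal from a receptor tyrosine kinase through RAS, RAF and MEK to the ERK kinases. ERK then raises transcripts of its own inhibitors, so these transcripts are widely used as a readout of recent pathway activity. In the follicle the cascade is known to act downstream of growth factors and of the ovulatory surge of luteinizing hormone. The roles given below for single genes come mostly from work in human and mouse cells.

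RNA of each cow was hybridized to 1 Affymetrix Bovine Gene 1.0 ST array, and arrays therefore differ as cows do, with the technical error included. Values are normalized linear intensities in arbitrary units, and between 9065 and 9687 of 26773 probe sets lay above the study's noise threshold of 100 on each array. Groups were compared by limma on log2 intensity over 10120 probe sets that exceeded 100 in at least 1 group mean, and a gene passed at an adjusted p under 0.05. In this comparison 1.56% of the probe sets were called higher and 0.623% lower in High A4. The median log2 fold change (High A4 over Control) was -0.16 over the 10120, and 0.11 over the 15319 whose mean intensity was 10 to 100. With quantile normalization or cyclic loess the median over the tested probe sets became -0.03 and -0.01. Granulosa markers were bright and 0 of 9 passed in limma, with 0 at an unadjusted p under 0.05. The summed intensity of 5 theca markers was 5441 to 8890 in High A4 and 2652 to 4782 in Control, and that of 8 stromal markers was 1703 to 3217 and 672 to 2426. In these lists CYP17A1 (theca), DCN and OGN (stroma) passed as higher. The theca sum came mostly from LHCGR, which granulosa cells of dominant follicles also express, and 2 of the 5 theca markers had negative log2 fold changes (NR2F2 -0.18, TCF21 -0.29). TCF21, also on the stromal list, was the only negative one of its 8 markers. Leukocyte markers overlapped between the groups (317 to 719 and 288 to 519), and 7 endothelial markers summed to 274 to 332 and 217 to 273. No marker was listed at 0. The part of these cells in the values below was not tested.

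None of the 10 feedback genes passed in either direction. Only DUSP1, SPRED1 and SPRED2 lay above the noise threshold in at least 1 group and entered the test, and 0 of these 3 passed in limma. At an unadjusted p under 0.05, 1 of the 3 (DUSP1) was lower and 0 were higher, where 17.1% and 4.83% of all probe sets tested were. An analysis of variance without moderation gave an unadjusted p of 0.0637 for DUSP1, and it called 0 of the 3. By the study's criterion (p under 0.05 and a fold change above 1.5), which 4.38% of the probe sets tested met as lower, 0 of the 3 were called as well. The other 7 genes were under the threshold in both groups. Tested without the noise filter, where 8.47% of the 26773 probe sets were called higher and 1.64% lower, 0 of the 10 passed. There 2 genes (DUSP1 and DUSP5) had an unadjusted p under 0.05, both lower, against 9.24% of all probe sets. Of all 80 values (10 genes in 8 cows), 20 were above 100. The groups overlapped in each of the 10 genes, where they did not overlap in 16.9% of all probe sets. The median log2 fold change of the 10 was 0.02, and 4 of the 10 were negative. In cell mixtures of this kind, fewer cells of a type and less RNA per cell cannot be told apart.

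**Figure D1:**
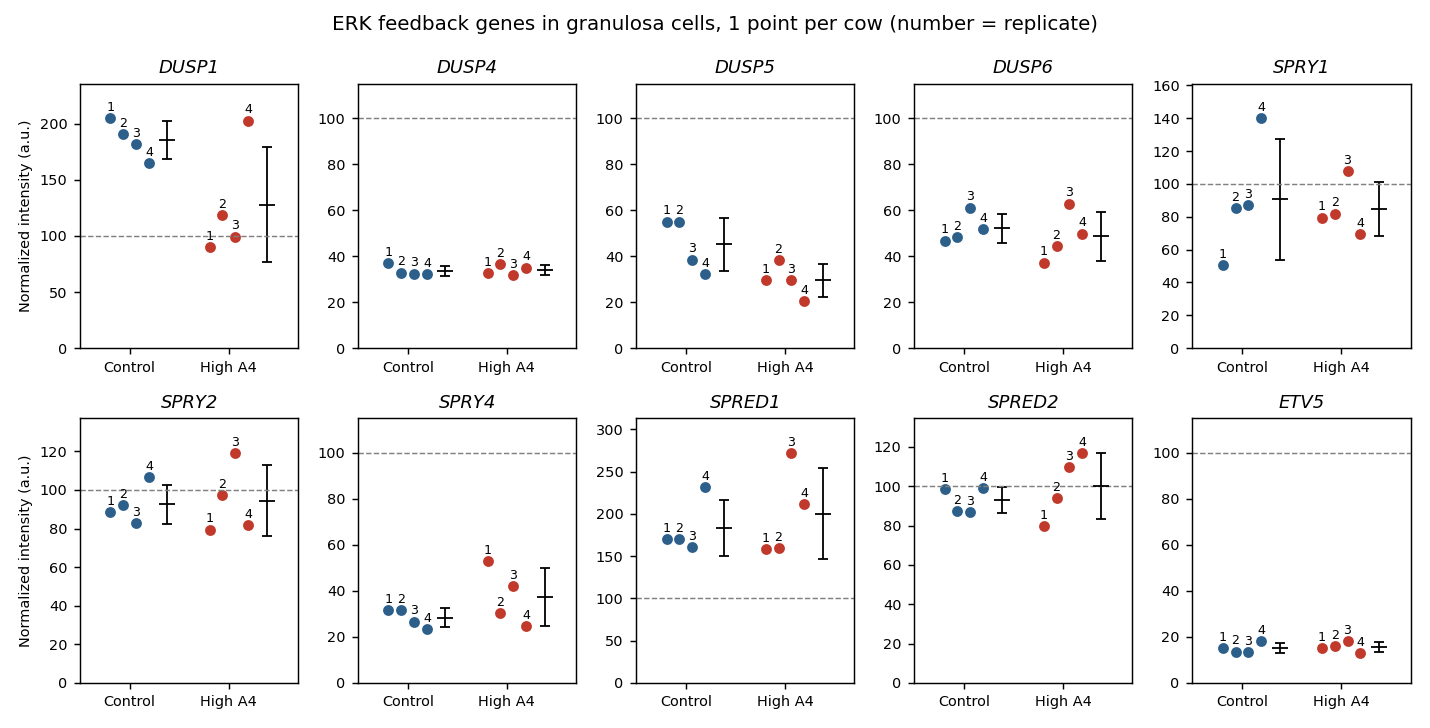
Normalized intensity (arbitrary units, linear axis from 0) of the 10 feedback genes, with 1 point per cow numbered by its replicate, and a bar for the mean and SD (n = 4 cows per group); the dashed line is the noise threshold of 100. The groups overlap in every panel, and DUSP1 does so through High A4 replicate 4 alone.

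DUSP1 encodes a nuclear phosphatase that removes phosphate from ERK, p38 and JNK and is induced within minutes of a stimulus. Its intensities were 90.3, 118, 99.4 and 203 in High A4 replicates 1 to 4 and 205, 190, 182 and 165 in Control replicates 1 to 4. The first 3 High A4 cows lay below every Control cow, while High A4 replicate 4 lay at the upper end of the Control values. The High A4 mean was 128 ± 51.4 and the Control mean 185 ± 16.8 (SD, n = 4 each). The log2 fold change was -0.61 (standard error 0.23, 95% confidence interval -1.13 to -0.09), with an limma adjusted p = 0.18, so DUSP1 did not pass. Relative to the median of all probe sets tested the difference was -0.45 on the log2 scale. Without High A4 replicate 4 the log2 fold change was -0.86 and DUSP1 passed (limma adjusted p = 0.011), and 5.63% of all probe sets were called lower in that comparison. It also passed without High A4 and Control replicate 4 together (-0.91, limma adjusted p = 0.0163, 3.97% of probe sets called lower), a choice made after its values were seen. With array weights, which were lowest for High A4 replicate 1 (0.226) and highest for Control replicate 2 (5.02), the adjusted p was 0.0449 and 9.28% of probe sets were called lower. With quantile normalization the log2 fold change of DUSP1 was nearer 0, at -0.48 (limma unadjusted p = 0.0574, adjusted p = 0.354). With cyclic loess it was -0.44 (limma unadjusted p = 0.0656, adjusted p = 0.378). Over the 21 alternatives the adjusted p of DUSP1 from limma or the analysis of variance ran from 0.011 to 0.378.

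DUSP5, another nuclear phosphatase, is specific for ERK and is itself induced by ERK. Its intensities were 29.6, 38.3, 29.5 and 20.4 in High A4 and 55, 55, 38.5 and 32.3 in Control, in the order of the replicates. All 8 values were far under the noise threshold, and Control replicate 4 lay within the High A4 range. In the fit without the noise filter the log2 fold change was -0.62 (standard error 0.23, 95% confidence interval -1.14 to -0.10, limma adjusted p = 0.133). Dim probe sets as a whole had a median of 0.11, so DUSP5 differed from its neighbours in intensity by more than from 0. High A4 replicate 4, which had the highest DUSP1 value of its group, had the lowest DUSP5 value.

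DUSP6, the cytoplasmic phosphatase specific for ERK and a common transcript readout of fibroblast growth factor signalling, had 37.2, 44.4, 62.8 and 49.8 in High A4 and 46.8, 48.4, 61.1 and 51.8 in Control. The Control cows lay within the wider range of the High A4 cows, of which replicates 1 and 2 lay below every Control cow. The log2 fold change was -0.12 (95% confidence interval -0.52 to 0.28, without the noise filter). DUSP4, a nuclear phosphatase of ERK, p38 and JNK, had values between 31.8 and 36.4 in High A4 and between 32.2 and 36.9 in Control. Its log2 fold change was 0.02 (95% confidence interval -0.27 to 0.30), and the other probe set of DUSP4 gave 0.02 too. With quantile normalization and cyclic loess the value of DUSP4 was -0.17 and -0.15, still without a test above the noise threshold.

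**Figure D2:**
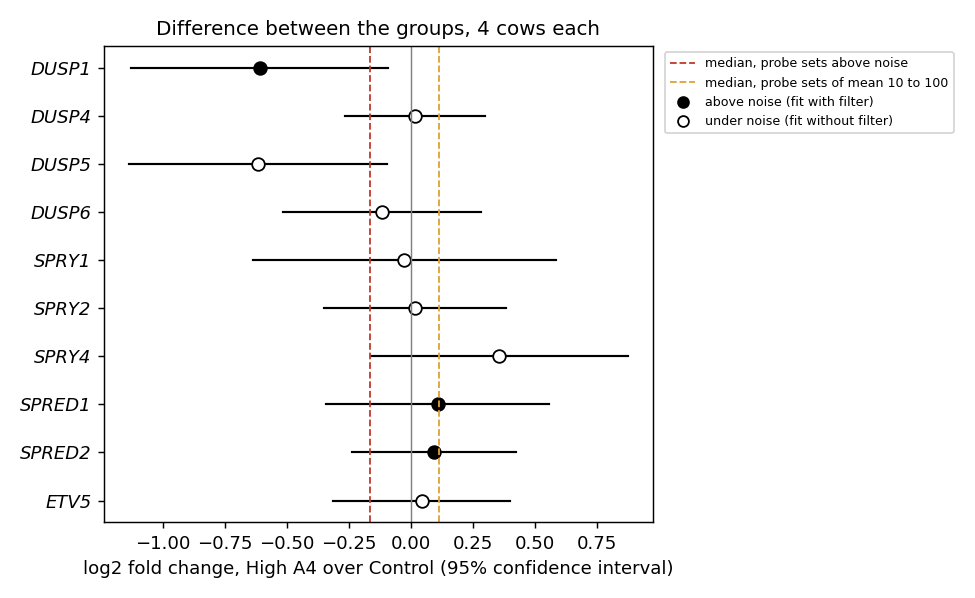
Log2 fold change (High A4 over Control) of each gene with its 95% confidence interval from limma, filled for genes above the noise threshold and open for genes tested only without the filter. The intervals of DUSP1 and DUSP5 lie below 0 before adjustment and the other 8 cross 0; dashed lines mark the medians of -0.16 over probe sets above the threshold and 0.11 over dim probe sets.

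The Sprouty proteins block the step from receptor to RAS and RAF. SPRY2 had intensities of 79.4, 97.3, 119 and 81.8 in High A4 and 88.5, 92.3, 82.9 and 107 in Control. Its groups shared their range, and the log2 fold change was 0.02 (95% confidence interval -0.35 to 0.38, without the noise filter). SPRY1 had 79.5, 81.9, 108 and 69.4 in High A4 and 50.7, 85.1, 86.9 and 140 in Control. Its Control cows spread more widely than its High A4 cows (SD 36.9 and 16.5, n = 4 cows each), and the interval of its log2 fold change of -0.03 was correspondingly wide (-0.64 to 0.58). SPRY4 had the highest positive log2 fold change of the 10 genes, 0.36 (95% confidence interval -0.16 to 0.87, limma adjusted p = 0.375 without the noise filter). Its intensities were 53, 30.3, 42.1 and 24.7 in High A4 and 31.6, 31.6, 26.6 and 23.3 in Control. High A4 replicates 1 and 3 lay above all Control cows and replicates 2 and 4 among them, and no value reached the noise threshold.

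SPRED1 and SPRED2 carry the same C-terminal domain as the Sprouty proteins and bring the RAS inhibitor neurofibromin (NF1) to the membrane. SPRED1 was the only one of the 10 genes above 100 in all 8 cows, with 158, 160, 272 and 212 in High A4 and 170, 170, 161 and 232 in Control. High A4 replicates 3 and 4 and Control replicate 4 stood above the other 5 cows, which lay between 158 and 170. The means were 200 ± 53.9 and 183 ± 32.7 (SD, n = 4 cows each), and the log2 fold change was 0.11 (standard error 0.20, 95% confidence interval -0.34 to 0.56, limma adjusted p = 0.764). Without High A4 replicate 3 the sign turned (-0.05). SPRED2 had 79.7, 94.1, 110 and 117 in High A4 and 98.5, 87.5, 87 and 98.9 in Control. It entered the test through its High A4 mean of 100.1 alone, with a Control mean of 93. Its log2 fold change was 0.09 (standard error 0.15, 95% confidence interval -0.24 to 0.42, limma adjusted p = 0.717), and its Control cows lay within the range of its High A4 cows. NF1 itself, which SPRED proteins recruit, had a log2 fold change of -0.09 (limma adjusted p = 0.774).

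ETV5, a transcription factor of the ETS family whose transcript follows ERK activity in many tissues, was dim throughout, with 15, 16.1, 18 and 12.8 in High A4 and 15.1, 13.6, 13.2 and 18.1 in Control. The ranges were nearly the same and the log2 fold change was 0.04 (95% confidence interval -0.31 to 0.40, without the noise filter). With quantile normalization and cyclic loess it was -0.34 and -0.20, the first of which lies outside that interval. All 8 values were far under the noise threshold.

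For 6 of the 10 genes (DUSP4, DUSP6, SPRY2, SPRED1, SPRED2 and ETV5) the 95% confidence interval lay within a fold change of 1.5 in both directions with the values as deposited, and the intervals were not computed under the other scalings. The intervals of DUSP1, DUSP5 and SPRY1 reached past a fold change of 1.5 downward and that of SPRY4 past it upward. Intervals of dim probe sets refer to intensity, and background in the signal draws a difference in RNA toward 0. The genes also varied from cow to cow in a way that the groups did not follow. Within High A4, replicate 3 had the highest value in 5 of the 10 genes, and within Control, replicate 4 had the highest value in 5 of the 10. SPRY1, SPRY2, SPRED1 and ETV5 were in both of these sets. The remaining gene was DUSP6 in the High A4 set and SPRED2 in the Control set.

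The rest of the pathway was examined by role over 112 measured genes, of which 57 were above the noise threshold. KLF6 was the only gene of the 57 that passed. Before adjustment, 11 of the 57 were lower and 0 higher at p under 0.05, a share near the 17.1% of all probe sets that were lower. The 11 were spread unevenly, as 8 of them were among the 12 immediate early genes above the threshold. The median log2 fold change of the 57 was -0.15, beside -0.16 for all probe sets tested. Of the other phosphatases of these kinases 6 were measured and 1 was above the threshold, DUSP16, which acts on JNK and p38 (log2 fold change 0.00, limma adjusted p = 0.989, values 176 to 190 in High A4 and 159 to 224 in Control). DUSP14 was the only one of the 6 whose groups did not overlap, with 67.5 to 87.5 in High A4 and 92.1 to 109 in Control, a count near the 16.9% of all probe sets. It was named after its values were seen (log2 fold change -0.30, limma adjusted p = 0.209 without the noise filter). Among 10 other feedback and target genes, 5 were above the threshold and 0 passed in limma, with 0 at an unadjusted p under 0.05. The smallest p there belonged to SPRY3, the remaining Sprouty gene (0.25, limma adjusted p = 0.419), and to IER3, an ERK target that prolongs ERK signalling (0.15, limma adjusted p = 0.659).

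The signalling steps themselves showed no gene past the threshold. Of 8 genes of the RAS-RAF-MEK-ERK core above the noise threshold, 0 passed in limma, and 0 reached p under 0.05 before adjustment. The smallest p belonged to MAP2K1, which encodes the ERK kinase MEK1 (High A4 112 ± 19.5, Control 141 ± 12.7, SD over n = 4 each, log2 fold change -0.34, limma adjusted p = 0.233), and to NRAS (-0.41, limma adjusted p = 0.241). BRAF, which phosphorylates MEK and is named after its values were seen, was higher in every High A4 cow (479 to 523) than in any Control cow (399 to 465), with a log2 fold change of 0.18 (limma adjusted p = 0.369). Of 9 adaptors and exchange factors 0 passed in limma and 1 was lower at an unadjusted p under 0.05. This was SOS1, which loads RAS with GTP, with 181, 290, 275 and 408 in High A4 and 446, 456, 317 and 398 in Control (log2 fold change -0.53, limma adjusted p = 0.219). High A4 replicate 4 again lay among the Control cows. Its relative SOS2 had -0.29 (limma adjusted p = 0.371). Of 8 brakes on RAS and RAF 0 passed in limma and 1, RASAL2, was lower at an unadjusted p under 0.05 (-0.42, limma adjusted p = 0.215). RASA1, a RAS GTPase-activating protein, had non-overlapping groups (322 to 415 in High A4, 423 to 480 in Control, log2 fold change -0.27, limma adjusted p = 0.242). Over the 112 measured pathway genes the groups did not overlap in 6 as lower and in 4 as higher. This was a smaller share than the 16.9% of all probe sets, either direction. Of 6 kinases of the p38 and JNK branches 0 passed in limma and 1, MAPK9 (JNK2), was lower at an unadjusted p under 0.05 (-0.36, limma adjusted p = 0.21). MAP2K3, a kinase of p38, had -0.28 (limma adjusted p = 0.246).

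Above the noise threshold, 0 of 5 receptors and 0 of 3 ligands passed in limma, with 0 of each at an unadjusted p under 0.05. EGFR, the receptor of epidermal growth factor, had a log2 fold change of -0.32 (High A4 514 ± 89, Control 637 ± 55, SD over n = 4 each, limma adjusted p = 0.246), and FGFR1 had -0.18 (limma adjusted p = 0.433). The ligands KITLG, which binds KIT on the oocyte and theca cells, and IGF2 had -0.45 and 0.29 (limma adjusted p = 0.393 and 0.398). Without the noise filter 1 of 15 receptors and 2 of 20 ligands passed as higher in High A4, a share near the 8.47% of all probe sets. These 3 genes were named after their values were seen. ERBB4, a receptor of neuregulins, had 65.8, 60.5, 108 and 72 in High A4 and 22.9, 30.7, 29.6 and 26.1 in Control (log2 fold change 1.46, limma adjusted p = 0.00101). Every High A4 cow lay above every Control cow. HGF, the ligand of MET, did not overlap either (log2 fold change 1.97, limma adjusted p = 0.000136). FGF7, a growth factor made by theca cells in cattle, had 9.6 to 30.9 in High A4 and 6.5 to 8.9 in Control (log2 fold change 1.38, limma adjusted p = 0.019). All values of HGF and FGF7 lay under 100, and with an offset of 50 before the logarithm the log2 fold changes of ERBB4, HGF and FGF7 were 0.70, 0.79 and 0.29. Without the noise filter 1 of 5 theca markers (CYP17A1) and 4 of 8 stromal markers (DCN, OGN, COL1A2 and COL3A1) passed as higher in limma too. That stands against 8.47% of all probe sets. NR2F2 and TCF21 were the only genes of these lists with a negative log2 fold change. The part of such cells in these differences was not tested.

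**Figure D3:**
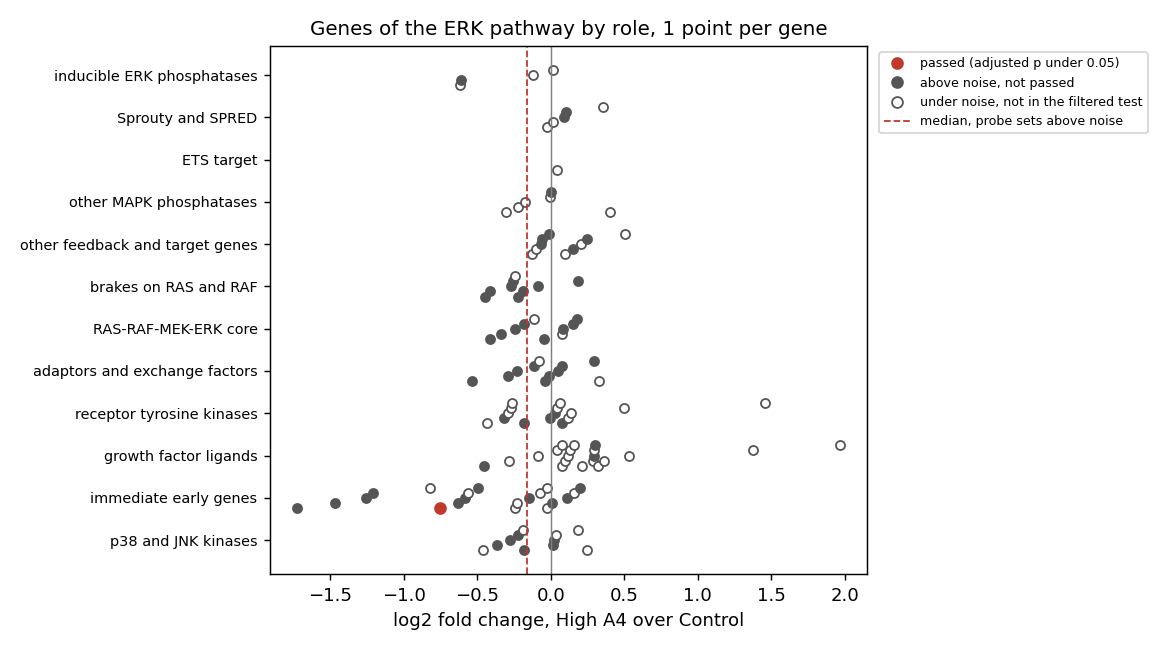
Log2 fold change (High A4 over Control) of 10 feedback genes, in the top 3 rows, and 112 other measured pathway genes, with 1 point per gene, by role; red points passed in limma, grey points were above the noise threshold and did not pass, open points were under it. KLF6 among the immediate early genes is the only red point, and most genes lie between -0.5 and 0.5.

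Immediate early genes, the transcription factors that growth factor signals raise first, had a lower median than the other pathway lists. Of 12 above the noise threshold 1 fell, KLF6, and 11 did not pass, and 8 were lower and 0 higher at an unadjusted p under 0.05, against 17.1% and 4.83% of all probe sets tested. FOS, FOSB, FOSL2 and KLF6 exceeded 100 in the Control mean alone, so the filter favoured lower values among the 12. The median was -0.61 over the 12, beside -0.16 for all probe sets tested, and -0.37 over all 20 measured, beside -0.01 for all 26773. Without the noise filter 4 of the 20 (KLF6, FOS, JUN and EGR1) passed as lower in limma and 0 as higher, against 1.64% and 8.47% of all probe sets. KLF6, a zinc finger factor, fell from 138 ± 10.1 in Control to 82.1 ± 11.8 in High A4 (SD over n = 4 each). Its log2 fold change was -0.76 with a standard error of 0.14 (limma adjusted p = 0.0197), and the groups did not overlap. The call was lost when any cow other than High A4 replicates 1 and 4 was left out, with adjusted p from 0.0525 (without Control replicate 4) to 0.0726 (without High A4 replicate 3) in limma. FOS, FOSB, EGR1 and JUN are named here after their values were seen. FOS had 43.3, 41, 36.8 and 87.1 in High A4 and 247, 216, 176 and 71.9 in Control (log2 fold change -1.72, limma adjusted p = 0.0544). EGR1 had 239, 246, 149 and 474 in High A4 and 889, 753, 979 and 369 in Control (-1.47, limma adjusted p = 0.0807). In both genes replicate 4 of each group stood apart, higher than the other High A4 cows and lower than the other Control cows. FOSB (-1.26, limma adjusted p = 0.104) had the same order, and JUN (-1.21, limma adjusted p = 0.053) did not overlap between the groups. Of the 20 measured, 3 had groups that did not overlap, all lower, a share near the 16.9% of all probe sets. FOS, FOSB, EGR1 and JUN passed without High A4 replicate 4, with adjusted p from limma of 0.0143, 0.034, 0.0153 and 0.00267. Without Control replicate 4, FOS, FOSB and EGR1 passed (0.00612, 0.0167 and 0.038) and JUN did not.

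**Figure D4:**
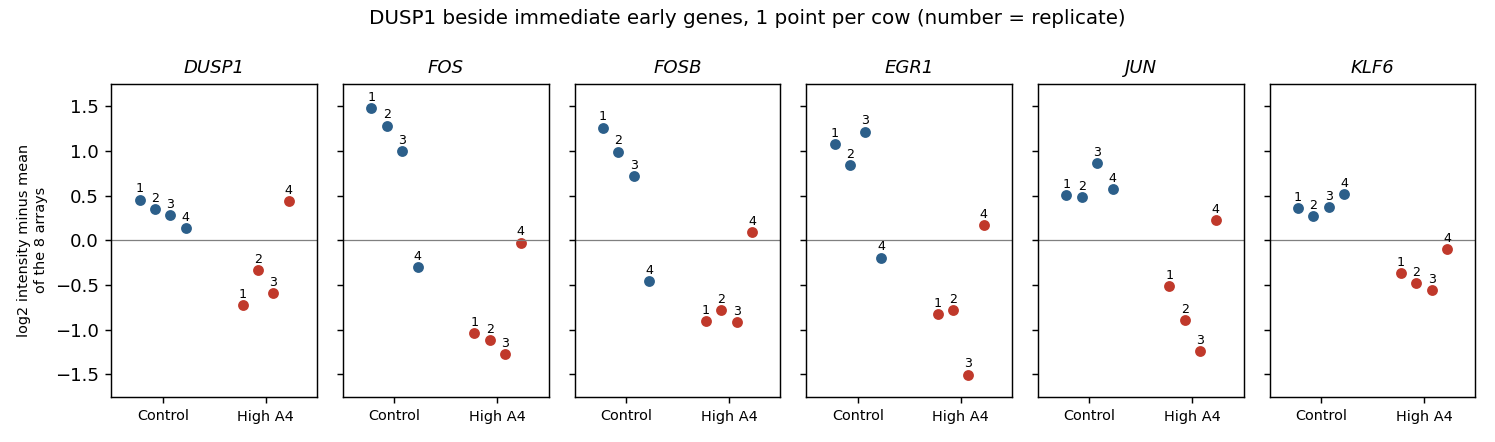
Log2 intensity of DUSP1 and 5 immediate early genes in each cow, minus the mean of the gene over the 8 arrays, with points numbered by replicate. High A4 replicate 4 is the highest High A4 cow in all 6 panels, and Control replicate 4 is below High A4 replicate 4 in DUSP1, FOS, FOSB and EGR1.

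DUSP1 followed these genes in part. High A4 replicate 4 was the highest cow of its group in DUSP1 and in 7 of the 12 immediate early genes above the threshold, and High A4 replicate 3 was the lowest in 8 of them but not in DUSP1. Control replicate 4 was the lowest Control cow in DUSP1 and in 6 of the 12. Within Control, DUSP1 covered 165 to 205 and FOS 71.9 to 247, while KLF6 covered 127 to 152. Around the group mean of the log2 values, High A4 cows ran from -0.42 to 0.74 in DUSP1 and from -0.41 to 0.84 in FOS. Over the mean-centred log2 values of the 8 arrays, the mean absolute difference from DUSP1 was 0.22 for KLF6, 0.35 for JUN and 0.67 for FOS. KLF6 was rank 422 of 7653 genes above the threshold by this measure, and FOS rank 7420. The profiles were centred but not scaled, so a gene that varies more than DUSP1, as FOS does, lies further away even with a similar order of cows. Of the pathway genes named above, SOS1 (rank 96) and NRAS (rank 134) were nearer than KLF6. The 5 genes nearest to DUSP1 by this measure were TSN, LOC100138449, CENPL, ZWILCH and LRIF1, with mean absolute differences of 0.08 to 0.11. TSN encodes translin, a protein that binds nucleic acids, and CENPL and ZWILCH encode proteins of the centromere and kinetochore. TSN, the nearest, had 134, 173, 172 and 238 in High A4 and 310, 279, 270 and 239 in Control (log2 fold change -0.64, limma adjusted p = 0.0987). None of the 5 passed in limma (adjusted p 0.0908 to 0.289), and the likeness is a description over 8 arrays that share the difference between the groups.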

How the data were processed

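Per the labels, RNA of each cow went to 1 array, and the deposited values are linear intensities, already normalized by the authors. The study's methods name Robust Multi-Array Averaging, whereas the submitters' processing notes list GCRMA and Affymetrix Expression Console. Which of them made the values is unknown, and neither versions, scan batches nor the annotation build are given in the sources used. The log2 of each deposited intensity was tested with limma 3.58.1 in R 4.3.3. Probe sets entered the test if at least 1 group mean exceeded 100, with Benjamini-Hochberg adjustment and a threshold of 0.05. Scripts were tested on simulated data. Symbols came from the platform table (18457 probe sets with 1 symbol, 688 with several, 7628 with none), and the gene IDs of all 10 feedback genes matched their symbols in assembly ARS-UCD2.0. The feedback genes and gene lists were chosen with earlier results of these data known. Named were all feedback genes, pathway genes that passed or otherwise the 2 smallest p of a list, and the 5 genes most like the feedback gene of smallest p (other genes are marked in the text). The number of arrays limits the precision. Alternatives were other filters, scalings, weights and variance models, an analysis of variance, a block for the replicate number, the mean of a gene's probe sets, and each cow left out. Sequences and promoter motifs were not analysed here.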

Additional observations from a re-analysis of the deposited data

Results flagged for a closer look

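In 7 of 80 sets of 4 cows, 1 cow lay far from the other 3, past Dixon's critical value for the gap over the range. The sets were the feedback genes and the genes named by rule, in each group. FOS, FOSB, EGR1, JUN, JUNB, JUND, ERBB4, HGF and FGF7 were added to them. Other genes named in the text, such as BRAF, DUSP14 and NF1, were not examined in this way. Chance flags about 1 in 20 independent sets, but these sets share 8 cows, and FOS, FOSB and LRIF1 were named for their values or their likeness to DUSP1, so the count is not set against that rate. Among the feedback genes, SPRED1 had 232 in Control replicate 4 against 161 to 170 in the other Control cows, and DUSP4 had 36.9 in Control replicate 1 against 32.2 to 32.8. High A4 replicate 4 stood apart in 3 genes, with 87.1 for FOS against 36.8 to 43.3 in the other High A4 cows, 99 for FOSB against 49.4 to 54.1, and 213 for LRIF1 against 111 to 125. SPRY3 had 157 in Control replicate 3 against 100 to 108, and SOS2 had 238 in High A4 replicate 1 against 400 to 419. No cause of these values was tested.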

How the results depend on the processing

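Over 21 alternatives no feedback gene passed as higher, and 184 of 210 fold changes kept their sign. DUSP1, DUSP5, SPRY4 and SPRED2 kept it in all 21. The sign was fixed in advance where an alternative changed only the filter, the test, the variance model or the replicate block. Array weights also left the 7 feedback genes under the noise threshold unchanged, and the mean of a gene's probe sets altered DUSP4 alone. The count of feedback genes that passed as lower was 0, became 1 (DUSP1) with array weights and with both replicate 4 cows left out (added after seeing the data), and was 0 to 1 with 1 cow left out. The count of lower pathway genes was 1, and became 4 without the noise filter, 2 with centred arrays, 2 with an offset of 50, 7 with array weights, 5 by the study's criterion, 6 without both replicate 4 cows, and 0 to 5 with 1 cow left out. That of higher ones was 0, and 3 without the filter. With 1 cow left out SPRED1 ran from -0.052 to 0.23 and DUSP16 from -0.068 to 0.10, and with centred arrays DUSP16 was -0.070. The causes were not tested. Over all probe sets the calls were 158 higher and 63 lower, but 168 and 19 with quantile normalization, 182 and 18 with cyclic loess, and 328 and 939 with array weights. With 1 cow left out the lower calls ran from 9 (without Control replicate 2) to 575 (without High A4 replicate 4). The samples share only a replicate number. After the group mean of each probe set was subtracted from the log2 intensity, same-numbered cows correlated at 0.19, -0.22, -0.11 and 0.20. With the replicate block 0 feedback genes passed, DUSP1 had an adjusted p = 0.205 from limma, 1 pathway gene was lower, and calls over all probe sets were 135 higher and 25 lower. Low signal limits the 7 feedback genes under the noise threshold.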
